A study of Solanum lycopersicum with 6 samples.

Results

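The genes described here were detected in tomato epicotyls under positive DIF and not under negative DIF. The epicotyl is the stem segment that grows out above the seed leaves, and DIF is the difference between day and night temperature. A stem that elongates needs walls that can be loosened and rebuilt, and its vascular strands form vessels whose secondary walls hold cellulose and lignin, a polymer made when laccases and peroxidases oxidise small phenolic alcohols. Sugars for this growth cross membranes through transporters, among which the SWEET family, also named MtN3-like, moves sucrose and other sugars down their gradient. Phenol-oxidising enzymes, pathogenesis-related proteins, and glutathione S-transferases are known from defence and detoxification.

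A probe was a member when the scanner software marked its spot as well above background on all 3 positive DIF arrays and on no negative DIF array. Of 42569 probes with a tomato gene identifier, 153 (0.359%) met this step. A further 18 probes were left out because another probe of the same gene was well above background under negative DIF. The 135 probes that remained stand for 124 of the 34527 genes on the array, and a limit of 300 probes was not reached. The opposite pattern, detection on all 3 negative DIF arrays and no positive DIF array, was shown by 119 probes (0.28%), which gave 95 probes of 87 genes by the same steps. The detection marks of all 6 arrays chose the members, so the differences between treatments in their signals are described without a test.

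The seedlings were of the cultivar Managua RZ in both treatments, aged 14 d at harvest, and had been kept for 7 d with a 16 h photoperiod at 300 μmol photons m-2 s-1. Under positive DIF the days were at 30°C and the nights at 25°C, and under negative DIF the days were at 25°C and the nights at 30°C. Harvest fell in the light period by the study's growth scheme, so the temperature at harvest and the DIF treatment cannot be told apart. Each treatment had 3 arrays, 1 for each biological replicate, hybridised with RNA labelled with a single dye. Whether a replicate was a pool of seedlings is not given in the sources used here. The 3 identifiers listed as markers of green shoot tissue, Solyc02g085950, Solyc03g034220, and Solyc02g063150, were well above background on all 6 arrays, but the sources used here do not describe them, so this is no full check of the labelled tissue. RNA of a whole stem segment was measured, so fewer cells of a type and less RNA per cell cannot be told apart.

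An array had 27230 to 29341 probes marked as well above background and no saturated spot. With 3 arrays a treatment, the number of arrays sets the precision. Negative DIF replicates 1 and 2 were on 1 slide, and negative DIF replicate 3 shared the other slide with the 3 positive DIF arrays. The dimmest spot marked as well above background had a processed signal, the background-subtracted brightness of a spot in arbitrary units, of 18.5, 22.4, and 18.5 on negative DIF arrays 1, 2, and 3 and of 15.4, 16.6, and 12.2 on positive DIF arrays 1, 2, and 3. In unscaled signal, the mark was thus given to dimmer spots on the positive DIF arrays. The 75th percentile of signal was higher on negative DIF arrays 1, 2, and 3 (2417, 1900, and 1572) than on the positive DIF arrays (1481, 1553, and 1475). Negative DIF replicate 3, at 1572 near the percentiles of the positive DIF arrays on its slide, had a higher limit than each of them. Negative DIF replicate 1 had a nearly equal limit at the highest percentile, 2417. Whether detection was laxer under positive DIF was not tested. Of the 135 member probes, 84 had all 3 positive DIF signals above 22.4, the highest of these 6 limits. When this unscaled limit was asked of every positive DIF array, 78 genes remained. A table of log2 values deposited beside the scanner files has headings that name the opposite treatment to the scanner files its columns match, with the same rank order over 26865 genes in every column. Directions here follow the titles of the scanner files, which are also the direction of the study's supplementary gene lists.

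The members were dim on the whole. Their median processed signal over the positive DIF arrays was 38.5, and the range of the means was 17.1 to 824, whereas the median of the 25327 probes detected on all 6 arrays was 1078. Across the members the median signal was 10.8, 9.05, and 10.4 on negative DIF arrays 1, 2, and 3 and 28.9, 45.1, and 44.1 on positive DIF arrays 1, 2, and 3. Because a member was not well above background under negative DIF, only a lower bound of its fold difference can be given. For this bound, log2 signals were set relative to the 75th percentile of their array, and a negative DIF signal below the dimmest well-detected spot of its array was replaced by that spot's signal. The bound over the 135 probes had a median of 2.51-fold, with quartiles of 1.79-fold and 4.25-fold and a range of 1.12-fold to 53.7-fold. It was at least 10 for 8 probes, from 5 to 10 for 15, from 2 to 5 for 67, and under 2 for 45. Gene descriptions were at hand for 22 of the 124 genes, all in the study's list of genes that were lower under negative DIF. That list was chosen on these same arrays and is not independent evidence of a direction. The described members had a median bound of 6.96-fold and the others of 2.17-fold, with a maximum of 6.76-fold among the others. Only genes of the study's lists of top changed genes had a description, so this gap is not read as a trait of described genes.

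**Figure D1:**
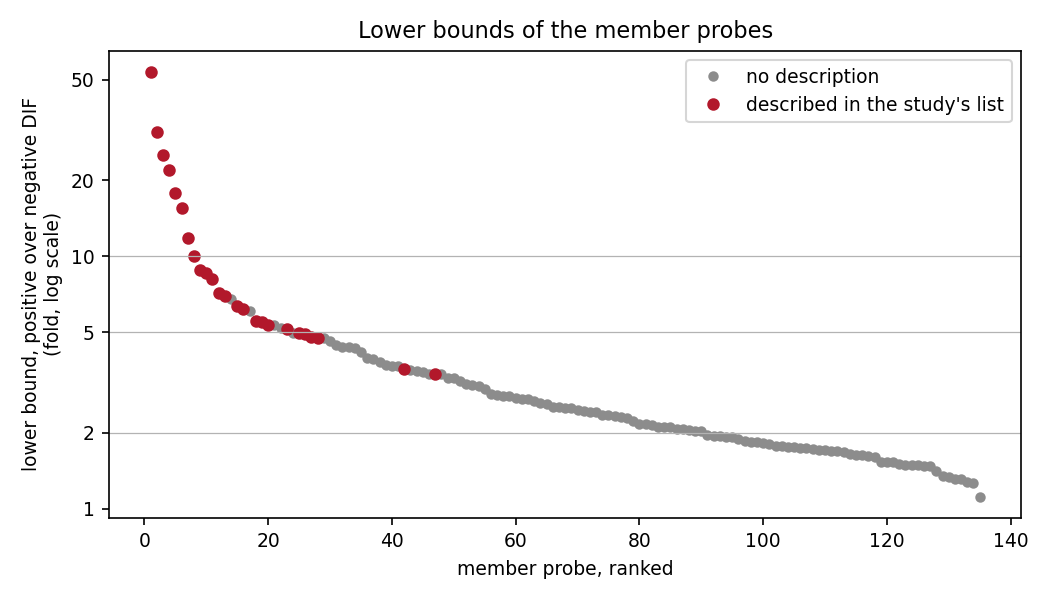
Lower bound of the fold difference, positive over negative DIF, for each of the 135 member probes in order of rank (log scale). Red points are the 25 probes of the 22 described genes and grey points the rest, and 8 probes lie at 10-fold or more.

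The highest bound belonged to Solyc06g072620, described as an MtN3-like protein. It is paired in the study's list with the Arabidopsis gene AT3G48740, which is SWEET11, a sucrose exporter of leaf phloem in Arabidopsis. The processed signals were 12.05, 8.80, and 8.83 on negative DIF arrays 1, 2, and 3 and 635, 1015, and 869 on positive DIF arrays 1, 2, and 3. All positive DIF arrays were thus far above all negative DIF arrays, and the positive DIF mean of -0.87 ± 0.32 relative to the 75th percentile (log2, SD, n = 3) was below that percentile by less than 1 log2 unit. The bound was 53.7-fold, and 14.8-fold with normexp background correction, which adds an offset to every spot. All 24 bounds of members named by rule moved by over 1.5 times under that correction, down to between 1.85-fold and 14.8-fold. This gene was the brightest of the members on every positive DIF array, and a weak signal, significant over the local background but not well above it, was marked on all 3 negative DIF arrays.

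The described members are taken in turn by what their families are known for, an order chosen after their values were seen and not tested as a theme. Among families of the cell wall, 1 described member each was a laccase, a dirigent-like protein, and a xyloglucan endotransglucosylase/hydrolase, and none was a peroxidase, an expansin, a pectin-degrading enzyme, a cellulose synthase, or a fasciclin-like protein. Such counts here and below cover the 22 described genes only. The other 102 member genes have no description, so no family is shown to be absent from the members. The laccase Solyc09g010990 is paired with AT5G60020, LAC17 of Arabidopsis, a laccase of stem lignification in that species. Laccase signals were 3.79, 5.99, and 18.1 under negative DIF and 302, 549, and 654 under positive DIF, with arrays in the order of replicates 1, 2, and 3 here and below. The bound was 31.1-fold, and the highest negative DIF signal, on replicate 3, was just below the limit of that array. Solyc03g114900 is a COBRA-like protein paired with AT5G15630, COBL4, which is needed for cellulose of secondary walls in Arabidopsis. It read 9.25, 22.5, and 4.07 under negative DIF and 37.2, 655, and 245 under positive DIF, a bound of 11.8-fold. It was 4.53-fold with normexp, 25.9-fold without positive DIF replicate 1, and 6.32-fold without positive DIF replicate 2. Positive DIF replicate 1 was only a little above negative DIF replicate 2, and the positive DIF arrays differed among themselves by up to 16.8-fold after scaling, the widest spread of any member.

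The next members of this kind had bounds near 5-fold and were picked for their descriptions after their values were seen. The dirigent-like protein Solyc09g091210, of a family that steers the coupling of phenolic radicals, read 6.03, 5.72, and 4.77 under negative DIF and 83.7, 71.1, and 101 under positive DIF, a bound of 5.50-fold. Xyloglucan endotransglucosylase/hydrolase 7 (Solyc07g055990) belongs to enzymes that cut and rejoin xyloglucan chains of the wall and read 4.67, 8.70, and 6.49 and 61.2, 77.9, and 92.9, a bound of 4.97-fold. In both genes the 3 positive DIF arrays lay close together and well above the negative DIF arrays. The blue copper protein Solyc01g104390 (4.95, 6.05, and 6.66 against 39.3, 121, and 104, bound 5.16-fold) and the germin-like protein Solyc05g006500 (19.3, 5.47, and 4.20 against 33.2, 87.9, and 137, bound 4.74-fold) are cell-surface proteins of families that bind metal ions. Both were dimmest on positive DIF replicate 1, and in the germin-like protein negative DIF replicate 1 stood above the other negative DIF arrays.

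Among enzymes of detoxification and oxidation, the glutathione S-transferase Solyc09g091140 had 2 member probes. Its first probe read 5.97, 5.13, and 11.5 under negative DIF and 149, 649, and 597 under positive DIF, a bound of 25.2-fold. The second read 5.45, 4.54, and 12.5 and 131, 597, and 495, a bound of 22.1-fold. Without positive DIF replicate 1 the bounds were 40.3-fold and 35.2-fold, and with normexp 7.26-fold and 7.23-fold. Both probes gave the same order of arrays under positive DIF, with replicate 1 well below the other two, and both were highest on replicate 3 under negative DIF. The polyphenol oxidase Solyc02g078650, an enzyme that oxidises phenols to quinones, read 17.5, 5.90, and 4.69 under negative DIF and 53.2, 451, and 568 under positive DIF. The bound was 15.6-fold, while positive DIF replicate 1 was much closer to the highest negative DIF signal, on replicate 1, than the other positive DIF arrays were. It was 4.45-fold with normexp, 32.8-fold without positive DIF replicate 1, and 10-fold without positive DIF replicate 3. Nudix hydrolase 4 (Solyc06g068900), of a family that cleaves nucleoside diphosphate derivatives, read 12.3, 9.85, and 11.4 under negative DIF and 48.2, 249, and 189 under positive DIF, a bound of 8.55-fold, and it too was lowest on positive DIF replicate 1, without which the bound was 14.01-fold.

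Among descriptions that name defence or signalling there was 1 receptor-like protein kinase. The dirigent-like protein Solyc09g091210 above is described in full as a disease resistance response/dirigent-like protein. None of the 22 described genes was a chitinase, a WRKY factor, an ethylene-responsive factor, or a proteinase inhibitor. The pathogenesis-related protein PR-1 gene Solyc00g174330, which is not placed on a chromosome, read 4.25, 13.8, and 19.4 under negative DIF and 101, 77.3, and 179 under positive DIF, a bound of 7.17-fold. Solyc11g069630, a receptor-like protein kinase paired with the chitin receptor gene LYK4 of Arabidopsis (AT2G23770), read 3.70, 6.84, and 9.96 and 84.7, 132, and 175, a bound of 8.14-fold. Groups did not overlap in either gene, which the detection rule largely fixes. Of other kinds, the transcription factor bHLH36 (Solyc09g074810) read 5.25, 4.62, and 3.79 under negative DIF and 107, 33.2, and 111 under positive DIF, a bound of 4.78-fold, and in contrast to the enzymes above it was lowest on positive DIF replicate 2. A non-specific lipid-transfer protein (Solyc03g005200), of small secreted proteins that carry lipids, was also lowest on replicate 2, with 12.98, 17.7, and 6.95 under negative DIF, 98.1, 52.1, and 85.5 under positive DIF, and a bound of 4.95-fold.

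Of the remaining described genes, the photosystem II 5 kDa protein Solyc01g008510, a nuclear-encoded protein of the chloroplast, read 12.7, 19.3, and 4.35 under negative DIF and 63.2, 123, and 79.5 under positive DIF, a bound of 5.55-fold. The pentatricopeptide repeat protein Solyc03g117260, of a family that binds organelle RNA, read 5.09, 5.18, and 13.8 and 98.2, 67.8, and 141, a bound of 6.38-fold. Solyc10g076280, described as solute carrier family 40 member 1 and paired with the vacuolar metal transporter gene IREG2 of Arabidopsis (AT5G03570), read 13.7, 8.95, and 14.6 and 32.1, 128, and 136, a bound of 5.37-fold. Positive DIF signals of these 3 genes lay above all their negative DIF signals, which the detection rule largely fixes, by the least in the solute carrier on positive DIF replicate 1.

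**Figure D2:**
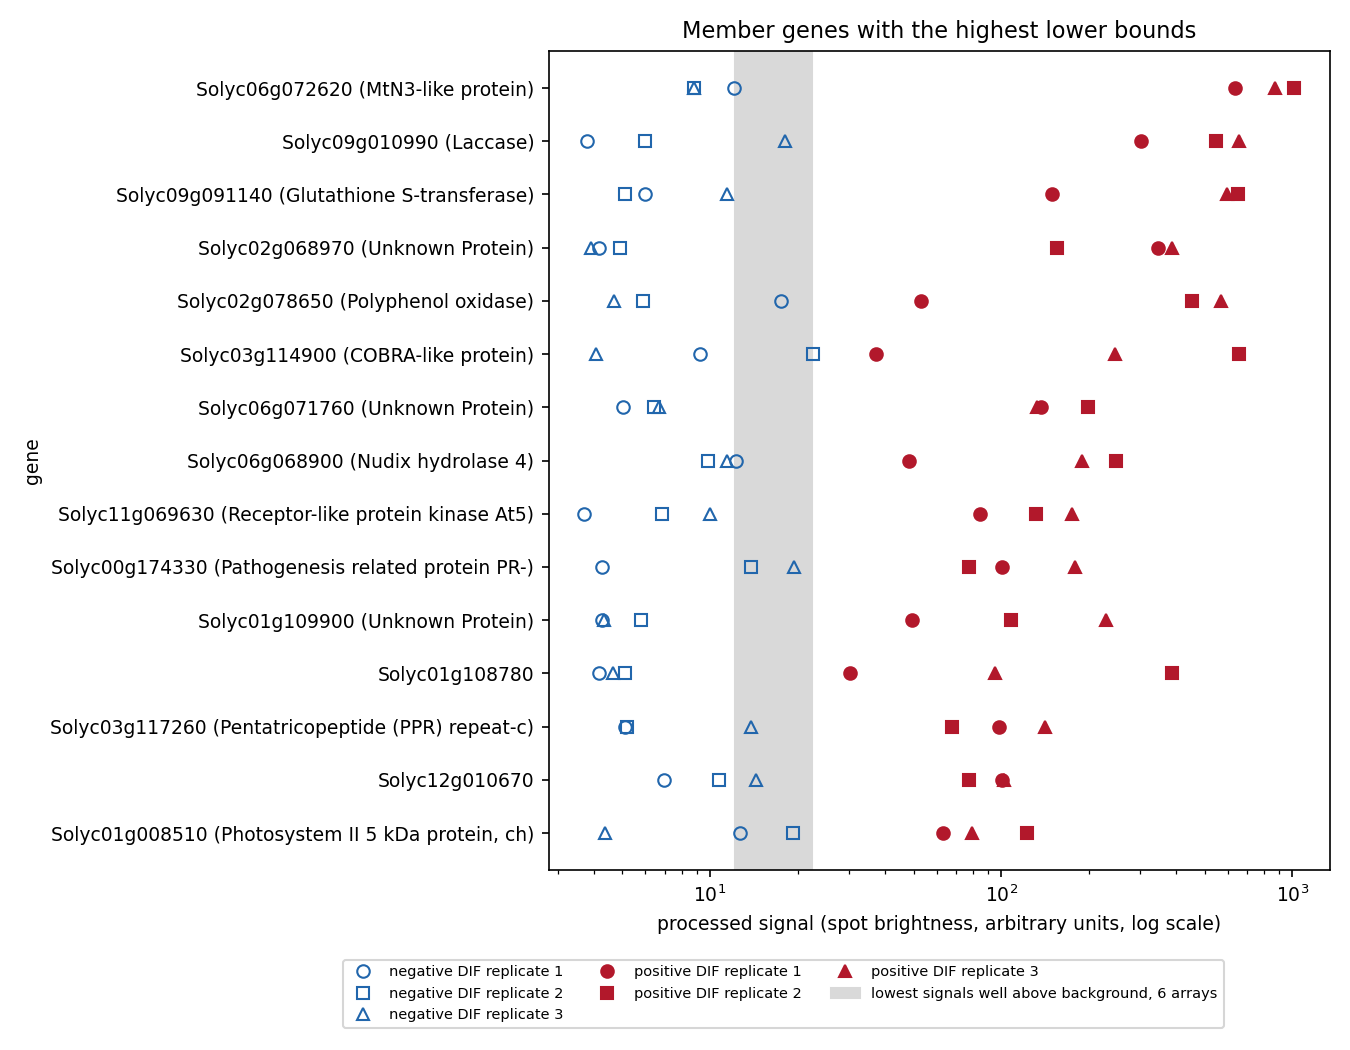
Processed signal (arbitrary units, log axis) of the 15 member genes with the highest lower bound, 1 probe for each gene, on the 3 negative DIF arrays (open blue) and the 3 positive DIF arrays (filled red). The grey band spans the lowest well-detected signals of the 6 arrays, 12.2 to 22.4, and every red point lies to its right.

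A group of 5 described members carries no protein name. For Solyc02g068970, which is paired with the C2H2 zinc finger gene AT5G61470 of Arabidopsis, the first probe read 4.15, 4.90, and 3.90 under negative DIF and 345, 155, and 385 under positive DIF, a bound of 17.9-fold. Its second probe read 8.26, 7.46, and 6.73 and 179, 28.3, and 167, a bound of 6.17-fold. Replicate 2 was the lowest positive DIF array in both probes, by more in the second, whose bound was 11.5-fold without that array. Solyc06g071760 also had 2 probes, which gave 5.03, 6.44, and 6.71 and 4.36, 5.71, and 8.76 under negative DIF and 138, 199, and 133 and 136, 176, and 105 under positive DIF. Their bounds were 10.02-fold and 8.86-fold, and the positive DIF arrays agreed closely, with SDs of 0.28 and 0.34 (log2, n = 3). Solyc01g109900, paired with AT2G16385, which encodes the peptide CIF1 of Casparian strip formation in Arabidopsis, read 4.27, 5.79, and 4.34 under negative DIF and 49.3, 108, and 229.7 under positive DIF, a bound of 6.96-fold, and no negative DIF array had even a weak signal. Solyc02g014760 (3.76, 4.87, and 3.87 against 68.7, 35.9, and 66.4, bound 3.57-fold) and Solyc04g072720 (3.73, 4.67, and 3.81 against 32.5, 60.9, and 73.5, bound 3.43-fold) likewise had no weak signal under negative DIF.

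The other 102 member genes have no description in the sources used here and are given by identifier only. Solyc01g108780 led them with 4.16, 5.09, and 4.64 under negative DIF and 30.3, 387, and 94.9 under positive DIF, a bound of 6.76-fold, with replicate 2 far above the other positive DIF arrays. The bound was 3.55-fold without positive DIF replicate 2, 12.4-fold without replicate 1, and 3.15-fold with normexp. Solyc12g010670 read 6.93, 10.7, and 14.4 under negative DIF and 101, 77.5, and 103 under positive DIF, a bound of 6.05-fold, with positive DIF arrays within a narrow range. At the other end, 45 of the 135 probes had a bound under 2-fold, down to 1.12-fold for Solyc06g054110.

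How near the members came to being detected under negative DIF differed. A weak signal was present on all 3 negative DIF arrays for 81 of the 135 probes, on 2 arrays for 31, on 1 array for 15, and on none for 8. The 8 probes with none were 1 each of Solyc01g109900, Solyc05g052870, Solyc12g062340, Solyc02g014760, Solyc04g072720, Solyc08g044230, Solyc02g082450, and Solyc03g042500, which were listed after their values were seen. "Not detected" therefore stands for a dim signal in most members rather than for none. After scaling, all 3 positive DIF arrays lay above all 3 negative DIF arrays in 131 of the 135 probes, a share that the detection rule largely fixes and from which nothing is read, beside 12.3% of all probes with a gene identifier. Before scaling, the treatments overlapped in 12 probes. The 4 probes whose treatments overlapped after scaling were those of Solyc08g075550, Solyc06g076760, Solyc02g086530, and Solyc02g083690, with bounds from 1.40-fold to 1.64-fold. In Solyc06g076760, for instance, the signals were 13.3, 24.7, and 8.76 under negative DIF and 45.0, 22.1, and 14.4 under positive DIF, so that before scaling negative DIF replicate 2 was brighter than positive DIF replicates 2 and 3.

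Probes at the edge of the rule show how fine the line was. Just inside it, Solyc10g083560 read 8.32, 5.09, and 4.08 under negative DIF and 20.8, 66.5, and 13.3 under positive DIF, and Solyc12g056390 read 6.30, 16.3, and 6.90 and 29.9, 139, and 14.2, the dimmest positive DIF spots that were still marked, together with Solyc06g076760 above. Just outside it, on 1 negative DIF array well above background, were Solyc01g106480 (19.3, 19.1, and 9.97 against 23.9, 22.0, and 18.3), Solyc12g010460 (20.2, 16.2, and 16.9 against 52.8, 47.6, and 58.5), and Solyc10g080380 (20.4, 5.28, and 14.7 against 103, 1303, and 371). The last of these was brighter on positive DIF replicate 2 than any member. Marked on only 2 positive DIF arrays were Solyc01g087680 (18.4, 16.9, and 13.9 against 21.7, 26.9, and 24.7), Solyc02g077060 (5.01, 28.6, and 26.3 against 20.1, 64.2, and 40.4), and Solyc04g025250 (19.6, 10.3, and 13.3 against 19.4, 25.2, and 80.1). In all, 203 probes were detected on the 3 positive DIF arrays and 1 negative DIF array, and 283 on 2 positive DIF arrays and no negative DIF array, so more probes lay 1 array away from the rule than met it.

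The 3 positive DIF replicates differed more in the members than in wider sets of detected probes. The median SD of a member over these arrays was 0.57 (log2), beside 0.36 for the 11977 probes of the same range of level and 0.28 for all 26128 probes detected on the 3 arrays. Members lay toward the dim end of that range, with a median signal of 38.5 between means of 17.1 and 824. The comparison probes were therefore not matched to the members in level. Scaled signals ranged over 2.07-fold at the median and over more than 5-fold in 13 probes. Replicate 1 was the lowest of the positive DIF arrays in 77 of the 135 probes (57.0%), replicate 2 in 32 (23.7%), and replicate 3 in 26 (19.3%), whereas the shares among probes of the same range of level were 42.0%, 29.8%, and 28.1%. These shares are a description, since the rule used the same arrays and the comparison probes were not matched in level. Members lowest on replicate 1 included the glutathione S-transferase, the polyphenol oxidase, the COBRA-like protein, and Nudix hydrolase 4. Some members instead stood out on replicate 2 alone. Both probes of Solyc08g044230 did so, with 33.4, 209, and 30.9 and 34.5, 196, and 19.1 under positive DIF, and so did Solyc05g054850 with 24.0, 303, and 70.5 and Solyc06g060480 with 18.3, 109.6, and 18.0. Solyc04g074000 stood out on replicate 3, with 31.3, 50.2, and 265. These examples were chosen after their values were seen.

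**Figure D3:**
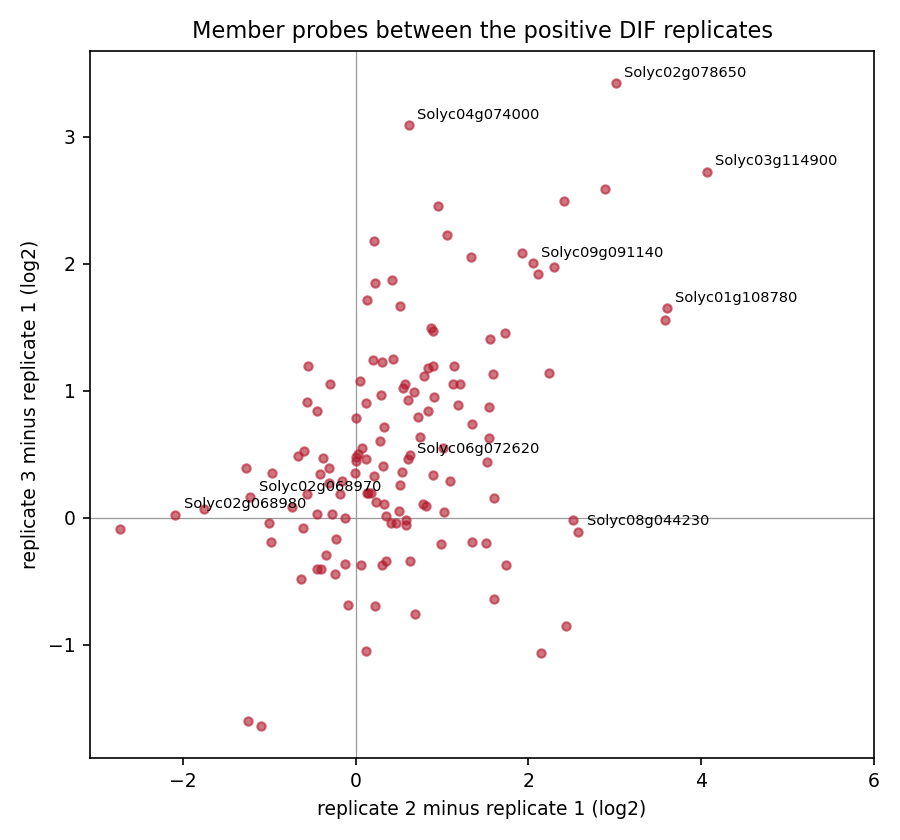
Each point is a member probe, placed by the log2 difference of positive DIF replicate 2 from replicate 1 (horizontal) and of replicate 3 from replicate 1 (vertical), after scaling to the 75th percentile. Most points lie in the upper right, since replicate 1 was lowest in 77 of the 135 probes, while both probes of Solyc08g044230 lie to the right, 1 near the zero line and the other below it, and Solyc02g068970 and Solyc02g068980 lie to the left.

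Of the 124 member genes, 100 had 1 probe on the array and 24 had more, of which 11 had 2 member probes. Probes of 1 gene share their RNA and are not replicates. Their bounds nevertheless stayed close in most pairs, as in Solyc12g062340 with 3.67-fold and 3.42-fold (positive DIF signals 37.6, 53.3, and 89.0 and 38.8, 49.8, and 75.3) and Solyc08g044230 with 3.91-fold and 3.29-fold. Without positive DIF replicate 2 the latter fell to 2.13-fold and 1.70-fold, and without replicate 3 the second probe was at 5.32-fold. The widest gap was that of Solyc02g068970. The 15 further probes of member genes were undetected throughout negative DIF, as the rule requires. Of these, 9 were detected on 2 positive DIF arrays, 2 on 1, and 4 on none. A probe of these genes detected on all 3 would itself be a member, so the rule fixes that none of the 15 was.

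Solyc numbers follow the order of genes along a chromosome, and positions by base are not given because no matching genome was used. Apart from the unplaced PR-1 gene, members were found on all 12 chromosomes, from 6 genes on chromosomes 8 and 12 to 17 genes on chromosome 1, and the share of a chromosome's genes that were members ranged from 0.24% to 0.50%. Only Solyc02g068970 and Solyc02g068980 were next to each other in the order on the array. Solyc02g068980, which has no description, read 4.78, 9.59, and 3.88 under negative DIF and 96.6, 23.8, and 97.8 under positive DIF, a bound of 3.96-fold, or 6.44-fold without positive DIF replicate 2. Its positive DIF pattern, low on replicate 2 and nearly equal on replicates 1 and 3, was that of both probes of its neighbour. In 2 further pairs, Solyc04g054430 with Solyc04g054450 and Solyc07g008120 with Solyc07g008140, 1 gene lay between the members. The first pair read 44.8, 19.5, and 58.6 and 25.3, 18.1, and 57.6 under positive DIF, again lowest on replicate 2 and highest on replicate 3 in both, and the second read 17.8, 21.7, and 22.3 and 20.5, 62.4, and 31.5, without a shared order.

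Genes next to a member were not chosen by their own signals, so a test of them does not reuse the detection marks that chose the members. The nearest gene on each side that was not itself a member gave 242 genes with 285 probes. In the limma fit over all 43803 probes, 2 neighbour probes (0.702%) were lower under negative DIF at an adjusted p under 0.05 and 1 (0.351%) was higher, whereas 0.495% of all probes were lower and 0.425% were higher. At an unadjusted p under 0.05, 37 (13%) were lower and 22 (7.72%) were higher, beside 8.73% and 10.2% of all probes. The median log2 fold change, negative over positive DIF, was -0.04 for the neighbours and 0.07 for all probes. Among probes detected on all 6 arrays it was -0.11 for 154 neighbours and 0.03 for all 25327. The medians of the neighbours were thus below those of all probes, while the share of neighbours past the adjusted threshold was near that of all probes in both directions. With counts of 2 and 1, nothing particular to the neighbours is read from these shares.

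**Figure D4:**
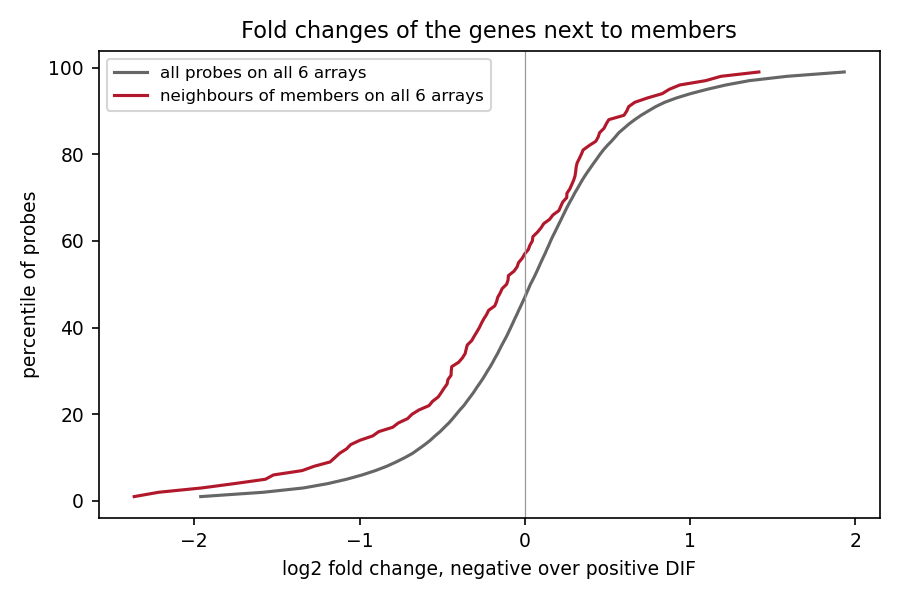
Percentiles of the log2 fold change, negative over positive DIF, for the 154 neighbour probes (red) and the 25327 probes overall (grey) that were detected on all 6 arrays. The red curve runs to the left of the grey one, with medians of -0.11 and 0.03.

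The clearest of these neighbours was Solyc06g072630, also described as an MtN3-like protein, beside the MtN3-like member Solyc06g072620. It is in the study's list of lower genes, which was chosen on these arrays. Its signals were 48.2, 33.8, and 32.6 under negative DIF and 120.3, 189, and 154 under positive DIF, so it was detected in both treatments and the treatments did not overlap. The log2 fold change was -2.38 with a standard error of 0.21 (limma, adjusted p = 0.0227). It was smaller, -1.28, with normexp (limma, adjusted p = 0.00979) and -1.55 in the authors' table turned to the scanner titles (limma, adjusted p = 0.00844). With slide as a fixed block, which compares negative DIF replicate 3 with the positive DIF arrays of its slide, it was -2.28 (limma, adjusted p = 0.217). The call was also lost when negative DIF replicate 1 or 2 or positive DIF replicate 2 or 3 was left out, with log2 fold changes of -2.39, -2.31, -2.24, and -2.35 and limma adjusted p of 0.0953, 0.12, 0.0562, and 0.0843. The gene on the other side of the member, Solyc06g072610, had a log2 fold change of -0.31 (limma, adjusted p = 0.408). Whether the probes of the 2 MtN3-like genes bind each other's RNA was not tested.

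Solyc05g054860, next to the member Solyc05g054850, read 580.3, 461, and 353 under negative DIF and 965, 955, and 1213 under positive DIF. This amounted to a log2 fold change of -1.55 with a standard error of 0.19 (limma, adjusted p = 0.0356). Unlike its neighbour, whose positive DIF signals were 24.0, 303, and 70.5, it was nearly level over the positive DIF arrays. Solyc01g102270, next to the member Solyc01g102260, changed the opposite way, with 1283, 1021, and 793 under negative DIF and 348, 274, and 343 under positive DIF. The log2 fold change came to 1.30 with a standard error of 0.19 (limma, adjusted p = 0.0491). The member beside it read 20.7, 20.1, and 22.8 under negative DIF and 42.6, 127, and 37.0 under positive DIF. With slide as a fixed block the 2 genes had log2 fold changes of -1.62 and 1.25 and neither passed the threshold (limma, adjusted p = 0.311 and 0.455). Neither passed it when any 1 of the 6 arrays was left out.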

How the data were processed

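RNA of epicotyls was measured on 6 one-colour Agilent arrays, 3 for positive DIF and 3 for negative DIF, grouped by their titles. The authors deposited the intensity of every spot as read by Agilent Feature Extraction 10.10.1.1, corrected for background on each array but not scaled across arrays, and 1 table of log2 values whose normalization is not given in the sources used here. Control spots and non-uniform spots (2 on each of 2 arrays, none of a member) were dropped, and processed signals were put on a log2 scale relative to the 75th percentile of their array. Members and bounds were computed as given above. All 43803 non-control probes were fitted with limma 3.58.1 in R 4.3.3 (lmFit and eBayes, treatment as the only term) with p-values adjusted by Benjamini-Hochberg across these probes and a threshold of 0.05, and the fit was tested on simulated data. Python 3.11.15 and pandas 2.3.3 were used for the rest. Probes of 1 gene were not averaged.

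The members and the lists were chosen with earlier results of these data known. Genes were named by a rule: the 15 highest bounds, members next to a member, members of a described family with at least 3 members (only genes of unknown function reached this), up to 5 genes with several member probes, probes at the edge of the rule, and neighbours past the threshold. Other described members were added after their values were seen. Supplementary lists of the study served for gene descriptions, paired Arabidopsis genes, and the direction in which a gene was listed. Their fold changes and p-values, the authors' own comparisons, were not used. A count of related genes past the threshold and a search of promoters for motifs were planned and not run, because descriptions of all genes and sequences were not used here. Alternatives were another detection mark, other orders of the steps, quantile normalization, normexp with an offset of 50, the authors' log2 table, a filter on dim probes, eBayes with trend and robust, slide and replicate number as blocks, a single slide, a common limit of detection, and each array left out in turn. The main fit did not pair samples by replicate number. Correlations of arrays with the same number over the treatments were 0.037, 0.059, and 0.217. They were not set beside those of unlike numbers, and both arrays numbered 3 shared a slide. They therefore cannot decide whether the samples were paired.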

Additional observations from a re-analysis of the deposited data

Results flagged for a closer look

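The limma fit and the wider sets of detected probes above drew on all non-control probes. Members were drawn only from probes with a tomato gene identifier. Of the 1234 probes without one, 8 were well above background on the 3 positive DIF arrays and on no negative DIF array, and 2 showed the opposite pattern. They were not counted as members because the rule asks for such an identifier. The highest bound was that of TowgeN_I_16662, 5.14-fold, with processed signals of 3.77, 4.85, and 3.79 under negative DIF and 38.5, 491, and 26.0 under positive DIF. TowgeN_I_21573 read 3.70, 4.48, and 3.70 under negative DIF and 31.7, 473, and 18.5 under positive DIF, a bound of 4.25-fold. Both stood out on positive DIF replicate 2, as Solyc08g044230 did. Their bounds use the mean over the 3 positive DIF arrays and so lean on that replicate, and bounds without it were not computed. TowgeN_I_50057 read 13.6, 17.4, and 10.2 against 46.8, 46.0, and 64.0, a bound of 3.37-fold, with the positive DIF arrays close together.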

How the results depend on the processing

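The number of member genes changed with the settings. Against 124 genes, other probes of a gene left unchecked gave 142, the mark for a weak signal in place of well above background gave 160, and bounds of at least 2-fold left 83. The slide with both treatments alone, where only negative DIF replicate 3 had to lack the mark, gave 384 genes. An unscaled limit of 22.4 on all positive DIF arrays, chosen after seeing the data, gave 78. Leaving out 1 array gave 137 to 250 genes, with 250 without negative DIF replicate 1, 220 without positive DIF replicate 1, and 225 without positive DIF replicate 2. Leaving out arrays removes conditions of the rule, so these counts and that of the single slide could not fall. Nothing is read from their direction. The median bound of 2.51-fold fell to 1.64 with normexp and lay between 2.17 and 2.94 with 1 array left out, and the quantile and single-slide values were 2.72 and 2.17. With normexp, 17 of 24 bounds of named members moved by more than 1 SD, within 1.85-fold to 14.8-fold, and none fell under 1.

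Neighbours past the threshold were 2 lower and 1 higher under negative DIF. The counts were 6 and 3 with quantile normalization, 9 and 5 with normexp, 9 and 5 after the filter on dim probes, 15 and 8 with a random slide block, and 8 and 4 with the robust trended variance. Over all probes of a fit, the main setting called 217 lower and 186 higher. In the same order, the alternatives called 695 and 571, 1129 and 970, 1038 and 955, 1532 and 1490, and 911 and 883. Calls thus rose across the whole array, and nothing particular to the neighbours is read from their counts. Slide as a fixed block gave 0 and 0, with 14 and 9 at an unadjusted p under 0.05. The replicate number as a block gave 0 and 0, with 34 and 22 unadjusted. Both of these fits called 0 probes on the whole array after adjustment. The authors' table read by its headings gave 6 lower and 10 higher, which turn into 10 lower and 6 higher by the scanner titles. Over all entries of that table, 1127 were lower and 1173 higher by its headings. Leaving out 1 array gave 0 to 2 lower and 0 to 1 higher, beside 0 to 140 lower and 0 to 427 higher over all probes. Without adjustment, these fits gave 26 to 34 lower and 16 to 26 higher neighbours. In the main fit on all 6 arrays, 37 neighbours were lower and 22 higher without adjustment. The fold changes of Solyc06g072630, Solyc05g054860, and Solyc01g102270 kept their direction in 14 alternatives, and passed the threshold in 8, 6, and 6 of them, with limma adjusted p from 0.00844 to 0.217, 0.00604 to 0.311, and 0.0113 to 0.455. The cause of these shifts was not tested. The dim signals of the members limit every bound.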
